A study of Mus musculus with 2 samples.

Results

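Cycling monocytes were barcodes with a monocyte-type transcriptome and transcripts of dividing cells, and 319 of the 4921 barcodes in the tables met the definition. They were selected on measured values in the same barcodes. A member had at least 200 genes and at most 5% mitochondrial UMIs (unique molecular identifiers, 1 per captured transcript). Of its UMIs, under 5% came from S100a8 and S100a9, under 1% from the granule genes Elane, Mpo, Prtn3 and Ctsg, and none from the B cell gene Cd79a, while Mki67, Top2a, Birc5 and Ube2c together gave at least 0.04%. The control library held 220 members and the OTM library 99. Barcodes that met every other part of the definition but not the minimum for the 4 proliferation genes are called noncycling monocytes here, 1184 in control and 751 in OTM.

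The study asked which myeloid cells of the jaw answer to orthodontic force. OTM (orthodontic tooth movement) mice carried a nickel-titanium coil spring between the left upper first molar and the incisors for 7 days, and control mice received no force. The mice were 8-week-old males of the C57/B6 J strain, and alveolar bone was digested with collagenase before F4/80+CD11b+ cells were sorted for droplet sequencing of transcript 3′ ends. In all, 20 mice were divided between the groups, the cells of a group were pooled into a single library, and the number of mice in each pool was not given in the sources used here. With 1 library in each group no difference between OTM and control has a replicate check, so no p-value is given, and 95% intervals cover counting error only. Force, library and depth cannot be told apart in that comparison.

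Monocytes form in the marrow from dividing granulocyte-monocyte progenitors, through monoblasts and promonocytes that still divide, and most cells stop dividing as they mature into Ly6C-high classical monocytes. A cell in S phase copies its DNA with the MCM helicase, replicative polymerases and enzymes that supply nucleotides. Mitosis is then entered with cyclin B and CDK1 and left when the anaphase-promoting complex, which works with UBE2C and CDC20, marks cyclin B for destruction. Genes of these later steps are often under CCAAT boxes and the cell cycle genes homology region (CHR) in their promoters, and S phase genes are often under E2F sites.

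The promoters of 5 genes that stand for these steps are shown to give the sequence behind the description, 120 bases before the transcription start in each. They are RefSeq sequences on GRCm38.p6, written 5′ to 3′ along the strand of the gene. Capitals mark CCAAT boxes (CCAAT or ATTGG) and CHR elements (TTTGAA or TTCAAA), so both strands are covered.
Mki67, chr7:135716380-135716499, minus strand: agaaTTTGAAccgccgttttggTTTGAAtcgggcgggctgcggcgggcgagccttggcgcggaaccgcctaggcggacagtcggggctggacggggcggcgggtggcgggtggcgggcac
Top2a, chr11:99024190-99024309, minus strand: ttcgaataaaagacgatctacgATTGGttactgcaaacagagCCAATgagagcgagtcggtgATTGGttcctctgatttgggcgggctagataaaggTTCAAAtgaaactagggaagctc
Ube2c, chr2:164769778-164769897, plus strand: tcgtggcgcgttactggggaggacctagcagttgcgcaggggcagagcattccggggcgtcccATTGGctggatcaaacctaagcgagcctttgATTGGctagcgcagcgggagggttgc
Rrm2, chr12:24708121-24708240, plus strand: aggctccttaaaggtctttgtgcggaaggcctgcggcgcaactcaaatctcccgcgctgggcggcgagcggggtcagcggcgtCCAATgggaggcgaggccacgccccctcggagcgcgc
Mcm5, chr8:75109389-75109508, plus strand: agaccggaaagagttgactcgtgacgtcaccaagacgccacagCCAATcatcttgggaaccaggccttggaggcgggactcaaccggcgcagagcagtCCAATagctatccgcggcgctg

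Mki67, which encodes a protein that coats mitotic chromosomes, had 2 CHR elements and no CCAAT box in this stretch. Top2a, the topoisomerase that untangles sister chromatids, had 3 CCAAT boxes and 1 CHR element. Ube2c, the ubiquitin-conjugating enzyme of the anaphase-promoting complex, had 2 CCAAT boxes. Rrm2, a subunit of ribonucleotide reductase, had 1 CCAAT box, and the helicase gene Mcm5 had 2. In the 250 bases before the start, a CCAAT box stood in 75% of the 44 promoters of 42 genes from the mitosis list used here, against 33.8% of all 32851 promoters. The share was 53.6% for the DNA replication list (28 promoters of 22 genes) and 19.0% for the monocyte identity list (21 promoters of 18 genes). The CHR letters were present in 34.1% of mitosis promoters, 10.7% of replication promoters and 16% of all. E2F letters (TTTCCCGC, TTTCGCGC, TTTGGCGC or TTTGCCGC on either strand; no motif contains another) were in 21.4% of replication promoters, 4.55% of mitosis promoters and 1.86% of all. These are letter matches, not sites shown to be bound.

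The members were a larger share of the control library than of the OTM library. They made up 7.76% of the control barcodes that passed the gene and mitochondrial limits (exact Clopper-Pearson interval 6.80 to 8.81) and 4.82% of the OTM barcodes (3.94 to 5.84). Among monocyte-type barcodes, cycling and noncycling together, the shares were 15.7% (13.8 to 17.7) and 11.6% (9.57 to 14.0). After each barcode was thinned to 2500 UMIs, at least 2 UMIs of the 4 proliferation genes were seen in 14.1% of 1254 control monocyte-type barcodes (12.2 to 16.2) and 10.4% of 837 in OTM (8.41 to 12.7). Mature neutrophils here were barcodes with at least 5% of UMIs from S100a8 and S100a9 and under 1% from Elane, Mpo, Prtn3 and Ctsg. Ltf, Camp, Ngp and Fcnb together gave under 1%, and no limit was set on the 4 proliferation genes. Dividing cells were thus not kept out, and the class is not a pure background. It gave 3.23% and 4.59% in the same count, so the order of the libraries was opposite there. The intervals for the monocyte-type barcodes narrowly overlapped, and shares of a sorted sample can follow the gate as well as the tissue. The part of the sort in these shares was not tested.

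Members were deep barcodes. Their median was 8468 UMIs in control (range 1801 to 28450) and 13803 in OTM (2417 to 28929), against 4060.5 and 7190 in noncycling monocytes. Median genes per member were 2291 and 3003. Median mitochondrial shares were 1.64% and 1.44%, against 1.35% and 1.13% in noncycling monocytes. All members of a library together gave 1931517 UMIs in control and 1386965 in OTM. A share with a fixed minimum is reached with fewer UMIs in shallow barcodes, and 14 control members (median 2109.5 UMIs) and 1 OTM member were admitted by a single UMI of the 4 genes. Doublets can also be deep, no doublet caller was run, and 3 control and 14 OTM members had over 20000 UMIs. The share of the 4 genes had a median of 0.171% in control and 0.161% in OTM, with highest values of 0.473% and 0.384%. At the threshold, the lowest members were at 0.0409% and 0.0402% and the highest noncycling barcodes at 0.0396% and 0.0387%. The 2 libraries shared 6 barcode sequences, among them 1 that was a member in both.

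**Figure D1:**
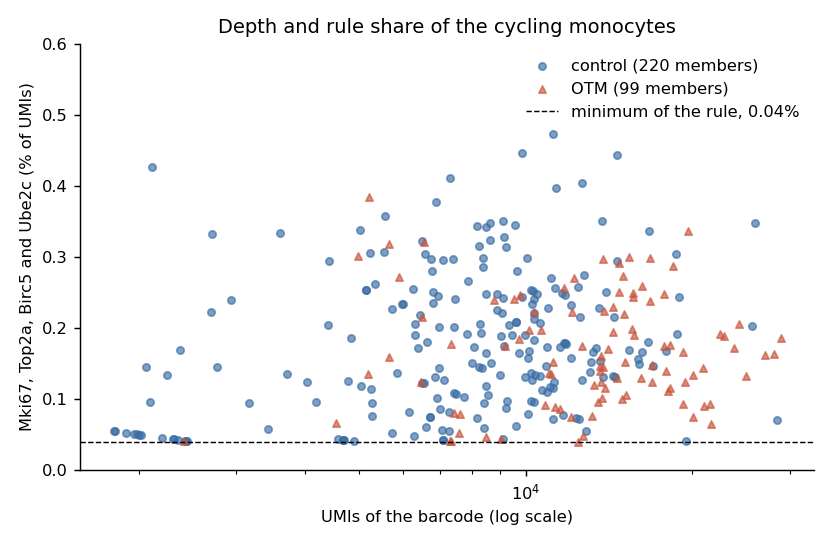
Each point is 1 cycling monocyte (circles and triangles for the 220 control and 99 OTM members), with its UMIs on a log axis and the share of its UMIs from Mki67, Top2a, Birc5 and Ube2c in percent. The dashed line is the minimum of the definition, 0.04%, and the OTM points lie further to the right, with medians of 13803 and 8468 UMIs.

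The monocyte label was checked against monocyte genes that the definition did not use. Ly6c2, the Ly6C surface protein of classical monocytes, was at 3190 UMIs per 1000000 UMIs of its group (CPM) in control members and 2545 CPM in OTM members, and had UMIs in 203 of 220 and 97 of 99. The chemokine receptor gene Ccr2 was at 310 and 281 CPM, F13a1, the coagulation factor XIII A chain made by classical monocytes, at 677 and 745 CPM, and the fibronectin gene Fn1 at 764 and 774 CPM. In cycling immature neutrophils of the same libraries, which met the proliferation minimum but had at least 5% S100a8 and S100a9, these genes were lower. Ly6c2 was at 775 and 820 CPM there, Ccr2 at 26.6 and 36.6 CPM, F13a1 at 38.3 and 82.8 CPM, and Fn1 at 44.2 and 62.9 CPM. Csf1r, the receptor for M-CSF, was at 89.0 CPM in control members and 64.9 CPM in OTM members, with UMIs in 103 and 43 of them. At the common depth of 2500 UMIs, at least 2 Csf1r UMIs were seen in 1.99% and 3.06% of members against 6.45% and 2.12% of mature neutrophils. This share of members was thus below that of mature neutrophils in control and little above it in OTM. Adgre1, which encodes the sorted F4/80, had UMIs in 52 and 34 members, at 32.6 and 36.0 CPM. Kit and Cd34, which mark early progenitors, were each at 3.62 CPM or less. The list of 12 progenitor genes that holds them summed to 2300 and 2354 CPM in members, against 3937 and 3949 CPM in noncycling monocytes. Gene by gene the list was mixed. Of 6 genes with at least 100 UMIs in control, 3 were higher in members and 3 lower, with a median log2 ratio of −0.03. Of 5 in OTM, 1 was higher and 4 lower, with a median of −0.33. Of the 7 genes that the definition limited, 6 had at least 100 UMIs in the compared groups together. Of these, 4 in control and 3 in OTM were at least 2-fold higher than in noncycling monocytes, against 10.5% and 12.2% of all genes. Both groups were chosen under the same limits on these genes, so the count is a description and no check of the label. All 6 of Csf1r, Ly6c2, Ccr2, Fcgr1, F13a1 and Fn1 were at 0 UMIs in 5 control members and 1 OTM member.

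A few members carried genes of other cell types. Hemoglobin took at least 1% of UMIs in 3 control and 2 OTM members, with 92.6% in the highest. Ly6d, a lymphoid progenitor gene, had at least 20 UMIs in 2 control members. The osteoclast genes Ctsk and Acp5 together had at least 10 UMIs in 4 control members and 1 OTM member. At least 2 UMIs of 15 B lineage genes were in 11 control members (5.00%) and 2 OTM members (2.02%), and at least 2 UMIs of 13 T and NK cell genes were in 6 and 4. The neutrophil granule gene Camp was at 713 and 541 CPM in members and 770 and 556 CPM in noncycling monocytes, and at 68292 and 50672 CPM in cycling neutrophils. The part of these barcodes in the levels below was not tested gene by gene, and for the genes named in OTM over control the values without them are given where they moved the ratio by over 1.5 times. The filter for those values counted Il6 among the basophil genes and left 29 of the 99 OTM members. With Il6 not counted 90 OTM members were left, and values from that filter are given beside the first.

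The members were set against noncycling monocytes of the same library, to describe what a dividing monocyte carried beyond the 4 genes that chose it. All of these are descriptions, since the genes below move with the 4 genes in the same barcodes. A gene was counted when it had at least 100 UMIs in the compared groups together, and called at a ratio of at least 2. In control 10.5% of 5022 genes were higher in members and 6.93% lower, and in OTM 12.2% of 4577 genes were higher and 6.07% lower. The median over these genes was a log2 ratio of 0.18 in control and 0.22 in OTM, so the middle of the genes lay above 0. With TMM scaling, which centres the bulk of genes, every log2 ratio dropped by 0.19 in control and 0.21 in OTM. Higher calls were then 345 against 478 lower in control, in place of 526 against 348, and 350 against 406 in OTM, in place of 557 against 278. Of 4430 genes counted in both libraries, 351 were called higher in both, 172 lower in both and 2 in opposite directions.

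**Figure D2:**
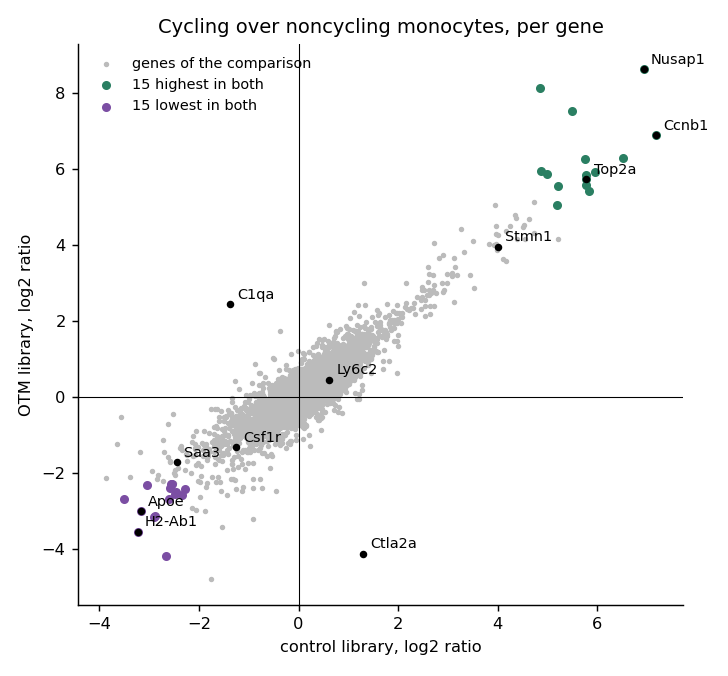
Each point is 1 of 4430 genes, with the log2 ratio of CPM in cycling over noncycling monocytes in control (horizontal) and OTM (vertical). Green marks the 15 highest and purple the 15 lowest in both libraries, black the labelled genes, and C1qa and Ctla2a stand alone in the quadrants where the libraries differ in sign past 2-fold.

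The 4 genes that chose the members are given as values. Mki67 (7:135689784-135716361, minus strand, GRCm38) was at 205 CPM in control members (exact Poisson interval 185 to 226) and 154 CPM in OTM members (134 to 176), with UMIs in 162 and 84 members. Top2a (11:98992943-99024189, minus strand) was at 374 and 330 CPM, Ube2c (2:164769898-164778822, plus strand) at 798 and 708 CPM, and Birc5, the survivin subunit of the chromosomal passenger complex, at 533 and 487 CPM. Their levels in noncycling monocytes were between 6.11 and 14.6 CPM, as the definition fixed. Stmn1 (4:134468320-134473843, plus strand), which encodes a microtubule-destabilising protein and was not in the definition, was at 984 CPM in control members and 797 CPM in OTM members. It was at 61.3 and 51.5 CPM in noncycling monocytes, log2 ratios of 4.0 and 3.95 (exact conditional binomial intervals 3.83 to 4.18 and 3.76 to 4.15). Stmn1 had UMIs in 195 of 220 control members and 94 of 99 OTM members.

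Mitosis genes outside the definition were higher in members. Of the 50 genes in the list, 33 had enough UMIs in control and 25 in OTM. All of those were called higher, against 10.5% and 12.2% of all genes. But a gene near 0 in noncycling monocytes passes the minimum only through the members. The counts of mitosis genes, like those of the other cell cycle lists, are thus no support. Their median log2 ratios were 4.73 and 4.68. Their summed level was 6346 CPM against 848 CPM in control, a 7.48-fold ratio, and 6600 CPM against 701 CPM in OTM, a 9.41-fold ratio. Ccnb1, cyclin B1, was at 96.8 and 164 CPM in members and 0.575 and 1.30 CPM in noncycling monocytes (log2 ratios 7.18 and 6.89). Cdk1, its kinase partner, was at 192 and 224 CPM in members, with UMIs in 139 and 88 of them, and log2 ratios were 4.86 and 5.95. Ccna2, cyclin A2, had log2 ratios of 6.52 and 6.29.

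The spindle and kinetochore genes showed the same order of size. Nusap1, a spindle microtubule-binding protein, had the highest ratio that both libraries reached, 6.94 in control and 8.62 in OTM on the log2 scale. Prc1, which bundles the midzone microtubules, was at 5.96 and 5.92, and Cenpe and Cenpf, both of the kinetochore, were at 5.22 and 5.56 and at 5.50 and 7.53. Ska1, also of the kinetochore, was at 4.99 and 5.87. Hmmr, a spindle-associated protein, was at 4.86 and 8.12, the OTM value resting on a level of 0.185 CPM in noncycling monocytes. Cdc20, the activator of the anaphase-promoting complex, was at 5.84 and 5.41.

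DNA replication genes were also higher, by less. In control 18 of 19 counted genes and in OTM 15 of 16 were called higher, against 10.5% and 12.2% of all genes. The median log2 ratios of the counted genes were 2.69 and 3.01. Summed levels were 1813 against 368 CPM in control (4.93-fold) and 1878 against 315 CPM in OTM (5.96-fold). Mcm5 was at 82.3 and 87.2 CPM in members (8.77-fold and 12.7-fold), and Mcm7 had ratios of 6.09 and 10.9. Rrm2 and Tyms, the thymidylate synthase gene, had log2 ratios of 3.98 and 4.02 in control and 4.03 and 4.28 in OTM. Pcna, the polymerase clamp, was the counted gene that was not called. It was at 206 CPM in members of both libraries and 111 and 105 CPM in noncycling monocytes, 1.85-fold and 1.96-fold, under the fold used for calls. The symbol 2810417H13Rik, an older name of the PCNA-associated factor Pclaf, was at 930 and 709 CPM with log2 ratios of 5.2 and 5.06.

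Genes of the chromatin and cytoskeleton that dividing cells build were among the most abundant of the higher genes. Of 20 counted in control 18 were called higher, and of 18 in OTM 16, against 10.5% and 12.2% of all genes. The summed ratios of the list were 4.54-fold and 4.64-fold. Hmgb2, a chromatin protein, was at 3708 and 3589 CPM in members against 493 and 528 CPM in noncycling monocytes. The tubulin genes Tubb5 and Tuba1b had log2 ratios of 3.09 and 3.19 in control and 3.27 and 3.20 in OTM. H2afx, which encodes a histone variant phosphorylated at DNA breaks, was at 3.82 and 4.02, and H2afz, another variant, at 1.47 and 1.62. The replication-dependent histone gene Hist1h2ap was at 5.76 and 6.26, and such transcripts lack long poly(A) tails, so capture by oligo-dT can be partial.

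Genes that start and restrain the cycle differed less. Of 16 G1/S entry genes, 3 were counted in control and 2 in OTM, and all of those were called higher. Ccnd3, cyclin D3, was at 202 and 168 CPM, 1.80-fold and 1.85-fold above noncycling monocytes, and Cdk4 was 2.48-fold and 3.64-fold above. Of 14 CDK inhibitor and quiescence genes, 9 were counted in each library, of which 2 were called higher and 1 lower in each. Of all genes, 10.5% and 12.2% were called higher and 6.93% and 6.07% lower, so these counts are near those shares. The 2 higher were the CDK4 and CDK6 inhibitors Cdkn2c, with log2 ratios of 3.99 and 3.87, and Cdkn2d, at 1.20 and 1.54. Btg1, an antiproliferative gene of resting leukocytes, was lower at −1.02 and −1.0. Cdkn1a, which encodes p21, was at 655 and 632 CPM in members and 754 and 836 CPM in noncycling monocytes, within the 2-fold limit.

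**Figure D3:**
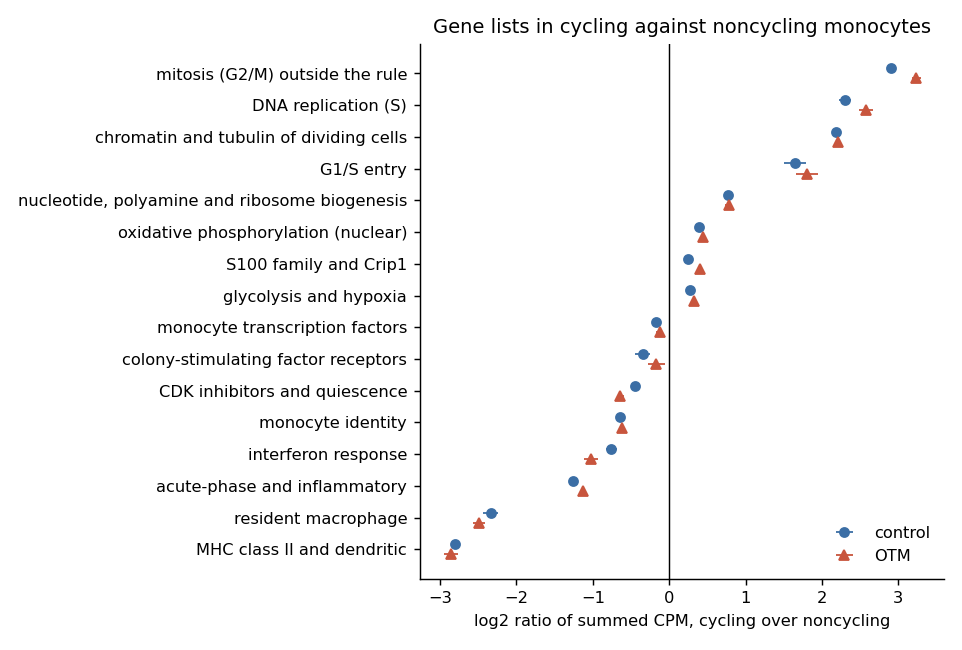
Points give the log2 ratio of summed CPM in cycling over noncycling monocytes for 16 of the gene lists, in control and OTM, with exact conditional binomial intervals that cover counting error. Circles are control and triangles OTM. Mitosis, DNA replication and chromatin lists lie furthest right among those drawn in both libraries, and MHC class II and resident macrophage lists furthest left.

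Most members carried replication and mitosis transcripts together. Each member of at least 2500 UMIs was thinned to that depth, which left 201 control and 98 OTM members. At least 2 DNA replication UMIs were found in 73.6% of control members (Clopper-Pearson interval 67.0 to 79.6) and 75.5% of OTM members (65.8 to 83.6), against 14.1% and 13% of noncycling monocytes and 11.3% and 7.42% of mature neutrophils. Without thinning the member shares were 89.1% and 96.0%. For the mitosis list without 5 genes found broadly in all cells (Cks2, Arl6ip1, Ube2s, Pttg1 and Cenpa, taken out after their values were seen), the shares were 94.0% and 96.9%, against 4.46% and 3.79% of noncycling monocytes. With the full list of 50 the shares were 97.5% and 99.0% of members, against 57.3% and 45.9% of noncycling monocytes. By the trimmed list, both kinds were present in 71.6% of control and 73.5% of OTM members, mitosis alone in 22.4% and 23.5%, replication alone in 1.99% and 2.04%, and neither in 3.98% and 1.02%. The 4 genes that chose the members are late-cycle genes, so high mitosis shares and few members with replication alone follow from the definition. Replication alone was seen in 12.6% and 11.9% of noncycling monocytes and in 8.87% and 3.18% of mature neutrophils.

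Cyclin B transcripts were found in more OTM members. At least 2 UMIs of the cyclin B genes were seen in 16.9% of thinned control members (12 to 22.8) and 30.6% of OTM members (21.7 to 40.7), and the intervals overlapped. In cycling neutrophils the shares were 10.1% and 16.2%. For MCM2-7 the order was opposite, at 24.4% and 18.4%. Unthinned levels gave the same order for cyclin B, with Ccnb1 1.70-fold and Ccnb2 1.40-fold higher in OTM members. Ly6c2 reached at least 2 UMIs in 85.1% and 91.8% of members, against 63.1% and 70.5% of noncycling monocytes and 58.9% and 35.3% of mature neutrophils.

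**Figure D4:**
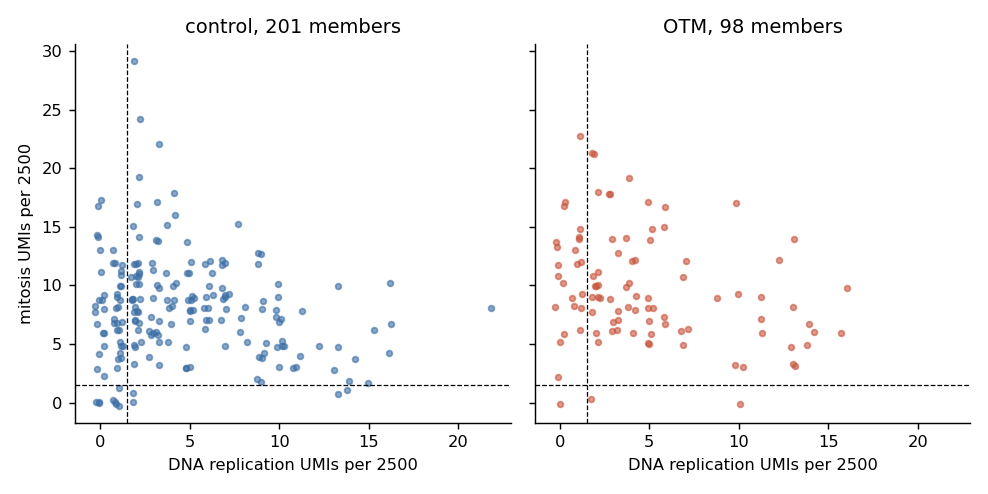
Each point is 1 cycling monocyte thinned to 2500 UMIs, with its DNA replication UMIs (horizontal) and its mitosis UMIs (vertical) in 201 control and 98 OTM members. Points are spread slightly so that they do not hide each other, dashed lines mark the minimum of 2 UMIs, and 71.6% and 73.5% of members lie above both.

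Within the members, levels differed with the share of the 4 genes that chose them. Members under 0.1%, from 0.1% to 0.2%, and at 0.2% or more numbered 54, 76 and 90 in control and 22, 47 and 30 in OTM. Ccnb1 was at 25.1, 65 and 156 CPM over these ranges in control and at 53.3, 163 and 243 CPM in OTM. Pcna had the opposite order, at 317, 242 and 126 CPM in control and 400, 205 and 77.5 CPM in OTM, and Mcm5 was at 106, 98.9 and 57.6 CPM in control and 198, 70.5 and 43.9 CPM in OTM. The ranges were cut on the 4 late-cycle genes that chose the members, so the order of Ccnb1 is a description, with no test. Apoe, a lipid transport gene of macrophages, was at 830, 67.7 and 55.2 CPM in control and 1386, 552 and 344 CPM in OTM. Cd74, the MHC class II invariant chain, was at 1704, 1185 and 225 CPM in control and 891, 216 and 150 CPM in OTM. F13a1 ran the other way, at 420, 674 and 790 CPM in control and 598, 742 and 850 CPM in OTM. The lowest range was also shallower, with median depths of 6225.5, 9849.5 and 8875.5 UMIs in control and 11421.5, 14939 and 14115 UMIs in OTM, and the part of depth was not tested.

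Most monocyte identity genes were lower in the members. Of 23 genes in the list, 22 were counted in each library, with medians of −0.67 and −0.64. Called lower were 8 in control and 6 in OTM, against 6.93% and 6.07% of all genes, and 0 were called higher. Lyz2, lysozyme M, was at 13618 and 12452 CPM in members against 23928 and 21495 CPM in noncycling monocytes. Csf1r had log2 ratios of −1.26 and −1.33, Ctss, the cathepsin S gene, −1.47 and −1.15, and Adgre1 −1.68 and −1.77. Ccr2 was lower within the limit, at −0.59 and −0.77. Of the 22 genes, 18 lay below 0 and 4 above in each library. Ly6c2 was at 0.62 and 0.46 and F13a1 at 0.48 and 0.24, both above 0 with TMM scaling too. Fn1 and Emb were each above 0 in control, at 0.34 and 0.36, and at 0.17 in OTM, where TMM scaling brought both to −0.05.

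Of the lineage's transcription factor genes, 2 of 15 counted in control were called lower, against 6.93% of all genes, and 3 of 13 in OTM, against 6.07%, with medians of −0.16 and −0.22. Irf8, which drives monocyte and dendritic cell fate, was at 150 and 108 CPM in members and 103 and 64.7 CPM in noncycling monocytes, log2 ratios of 0.54 and 0.74. Batf3, a dendritic cell factor, was called lower in control at −2.39, and Egr1 and Tcf4 in OTM at −1.13 and −1.15. Spi1 (PU.1) was at −0.06 and −0.22 and Cebpb at −0.16 and −0.07. The GM-CSF receptor gene Csf2ra was at 0.19 and 0.32.

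Genes of mature and antigen-presenting cells were lower in members. All 8 MHC class II and dendritic genes counted in control and 5 of 7 in OTM were called lower, against 6.93% and 6.07% of all genes. The summed level was 6.98-fold and 7.25-fold lower. H2-Ab1 (17:34257689-34269419, GRCm38), an MHC class II beta chain, was at 239 and 64.9 CPM in members and 2249 and 763 CPM in noncycling monocytes. Cd74 was at 867 and 325 CPM against 6499 and 2904 CPM. H2-Aa and H2-Eb1, an MHC class II alpha chain and another beta chain, had log2 ratios of −2.89 and −3.12, and −3.50 and −2.67. The MHC class II UMIs of members sat in few barcodes. H2-Aa, H2-Ab1 and H2-Eb1 together had at least 10 UMIs in 13 control members (5.91%) and 2 OTM members (2.02%). In noncycling monocytes this held for 274 (23.1%) and 97 barcodes (12.9%), so that group included a larger share of MHC class II-high barcodes. The part of this mixture in the lower levels was not tested. Apoe was at 204 and 652 CPM in members and 1843 and 5249 CPM in noncycling monocytes. Among resident macrophage genes 5 of 8 counted in control and 1 of 4 in OTM were called lower, and 1 of 4 in OTM, C1qa, was called higher from the UMIs of a single member.

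Nonclassical monocyte and interferon genes followed. Of 10 nonclassical genes counted in control 8 were called lower and 1 higher, and of 5 in OTM 2 were lower. Over all genes 6.93% in control and 6.07% in OTM were called lower, and 10.5% in control higher. Treml4, a receptor of Ly6C-low monocytes, had log2 ratios of −2.46 and −2.50. Of the interferon response list 7 of 22 counted genes in control and 11 of 21 in OTM were called lower, among them Isg15, a ubiquitin-like protein, at −1.32 and −1.90. The remaining genes of the 15 lowest in both libraries were the chemokine Ccl5 (−2.67 and −4.17), AF251705 (−2.61 and −2.68), Slfn5 (−2.49 and −2.56), Sirpb1a (−2.58 and −2.38), Sirpb1c (−2.56 and −2.29), the endothelin receptor Ednrb (−2.35 and −2.59), Ecm1 (−3.04 and −2.32), Mir155hg (−2.55 and −2.30) and the complement factor gene Cfb (−2.28 and −2.42).

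Inflammatory genes were lower in members as well. In control 19 of 25 and in OTM 12 of 25 acute-phase and inflammatory genes were called lower, with medians of −1.22 and −0.98. The shares of all genes called lower were 6.93% and 6.07%. Il1b, the interleukin-1 beta gene, had log2 ratios of −1.63 and −1.20, and Cxcl2, a neutrophil-attracting chemokine, was at −1.37 and −1.15.

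Genes that serve growth lay above 0 for the most part. Of 27 nuclear oxidative phosphorylation genes 26 lay above 0 in each library and 0 were called, with medians of 0.60 and 0.62, of which the TMM shift given above takes away 0.19 and 0.21. Of the nucleotide, polyamine and ribosome biogenesis genes, 6 of 15 in control and 6 of 14 in OTM were called higher. The shares of all genes called higher were 10.5% and 12.2%. Eif5a, a translation factor, was 2.05-fold and 2.00-fold higher. Ran, the GTPase of nuclear transport and spindle assembly, was 4.79-fold and 5.03-fold higher. Lgals1, the galectin-1 gene, was at 2186 and 1690 CPM in members against 843 and 547 CPM, and S100a10, an annexin partner, was at 1.05 and 0.97 on the log2 scale.

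Against cycling neutrophils of the same library the division programme was similar in size. Summed mitosis genes were 1.28-fold higher in control members and 1.22-fold in OTM members, and summed replication genes 1.48-fold and 1.36-fold higher. Chromatin and tubulin genes were 1.31-fold and 1.10-fold higher. The 7 genes that the definition limited took 302858 and 266273 CPM in cycling neutrophils, against 6067 and 10504 CPM in members. That lowers the CPM of all other genes in the neutrophils, so the ratios above lean towards the members. Ratios with those 7 genes left out were not computed. Over all genes counted in this comparison the medians were 0.85 and 0.75, above the medians of the mitosis list (0.47 and 0.48) and the replication list (0.76 and 0.72). Mitosis without replication UMIs was seen in 38.7% and 31.0% of thinned cycling neutrophils, against 22.4% and 23.5% of the members. The intervals did not overlap in control (32.2 to 45.5 and 16.8 to 28.8). But the same 7 genes took a median of 795 and 728 UMIs of a thinned cycling neutrophil, against 11 and 16 of a thinned member. That left fewer UMIs in which replication genes could be seen in the neutrophils. These shares thus cannot tell a different split of the phases from lower detection, and the part of detection was not tested.

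OTM members were then set against control members, to describe dividing monocytes with and without force. Of 3391 genes with at least 100 UMIs, 85 were at least 2-fold higher in OTM members (2.51%) and 49 at least 2-fold lower (1.45%), and the median log2 ratio was −0.01. TMM scaling moved the ratios by 0.02. Few cell cycle genes were called. In the mitosis list 0 of 40 counted genes passed 2-fold in either direction (median 0.16) and in the DNA replication list 0 of 20 (median 0.09), and the summed levels of each were 1.04-fold higher in OTM. In the chromatin and tubulin list 1 of 20 was called lower, the linker histone gene Hist1h1b at −1.06, and 17 of 20 lay below 0.

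Acute-phase and inflammatory genes were higher in OTM members. Of 23 counted, 14 were at least 2-fold higher and 0 lower, with a median of 1.25, against the 2.51% of all genes called higher. Their summed level was 12047 CPM in control members and 30398 CPM in OTM members, a 2.52-fold ratio, and noncycling monocytes showed 2.30-fold. Saa3 (7:46711998-46715700, minus strand, GRCm38), an acute-phase serum amyloid made by macrophages, was at 75.6 CPM in control members and 3077 CPM in OTM members, a log2 ratio of 5.34 (5.11 to 5.6). It had UMIs in 21 of 220 control members and 96 of 99 OTM members. In noncycling monocytes Saa3 was at 413 and 10124 CPM, a log2 ratio of 4.61 (4.55 to 4.68). After thinning, at least 2 Saa3 UMIs were seen in 3.48% and 59.2% of members, 10.2% and 62.5% of noncycling monocytes and 5.65% and 26.9% of mature neutrophils. The part of free RNA in the member values was not tested.

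Il1b was at 713 and 3453 CPM (log2 ratio 2.28), with UMIs in 165 control and 97 OTM members. Il1a was at 5.18 and 91.6 CPM (4.08), the control value resting on 9 members. Cxcl1 was at 106 and 611 CPM (2.52) and Cxcl2 at 4937 and 11773 CPM (1.25), both being chemokines for neutrophils. Il6 was at 177 and 556 CPM (1.65), in 66 and 80 members. The inflammasome gene Nlrp3 was at 131 and 270 CPM and Nfkbiz, a nuclear IκB protein, at 177 and 442 CPM. Cd14, the lipopolysaccharide co-receptor and the 1 identity gene called, was at 1989 and 4489 CPM in members and 4484 and 8212 CPM in noncycling monocytes.

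Some genes that neutrophils also make were higher in OTM members. Chil3, a chitinase-like protein, was at 1981 and 7916 CPM, Lcn2, the iron-sequestering lipocalin 2, at 130 and 544 CPM, and Wfdc21 at 69.4 and 570 CPM. Lrg1 was at 26.4 and 208 CPM. Of 9 neutrophil genes counted, 4 were called higher, against 2.51% of all genes, and 0 lower. Above 0 lay 5 and below it 4, and the granule genes Camp and Ltf lay at −0.40 and −0.30 on the log2 scale. The summed neutrophil list was 4722 CPM in control members and 11670 CPM in OTM members, in which Chil3 had the largest part, a 2.47-fold ratio against 3.71-fold in noncycling monocytes. The other genes of the 10 highest were the interferon-induced Ifitm1 (32.1 and 335 CPM), the mRNA decay factor Zfp36l1 (20.7 and 128 CPM), the medium-chain fatty acid receptor Gpr84 (11.9 and 66.3 CPM) and the carbonic anhydrases Car1 and Car2. Car1 had UMIs in 3 control and 3 OTM members and Car2 in 9 and 6, with 56.0% of the Car1 and 40.3% of the Car2 UMIs of OTM in a single barcode. Without barcodes holding genes of other cell types their log2 ratios were 10.0 and 7.31 in place of 4.59 and 3.46. With Il6 not counted in that filter they were 8.69 and 6.03.

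Genes lower in OTM members included antigen presentation and immediate early genes. Of 6 MHC class II genes counted 4 were at least 2-fold lower, against 1.45% of all genes. H2-Ab1 was at 239 and 64.9 CPM (−1.87) and Cd74 at 867 and 325 CPM (−1.41). In noncycling monocytes the same genes were at −1.56 and −1.16, and the summed list was 2.45-fold lower in members and 2.35-fold lower in noncycling monocytes. Of 17 immediate early and heat shock genes 7 were called lower, with a median of −0.53. Their summed level was close in the 2 libraries, at 10332 CPM in control members and 9826 CPM in OTM members. The AP-1 genes Fos and Jun were at 983 and 478 CPM and at 309 and 149 CPM, Fosb at 147 and 33.9 CPM, and the stress factor Atf3 at 146 and 62.7 CPM. Klf2, a quiescence factor, was at 287 and 110 CPM. In noncycling monocytes 4 of 17 were called lower, with a median of −0.41, while the summed level was 1.15-fold higher in OTM. The share of all genes called lower between the libraries was not computed for noncycling monocytes.

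The rest of the lowest genes rested on few members in several cases. Ly6d had 146 UMIs in 2 control members and 0 in OTM, at least 34.9-fold lower against a floor of 3 UMIs for the OTM members together. Ctla2a was at 80.2 and 2.88 CPM, in 9 and 4 members. Nkg7, a granule membrane gene, was at 57.0 and 6.49 CPM (−3.06), in 29 and 7 members. Without barcodes holding genes of other cell types its log2 ratio was −0.85, under the 2-fold limit, and −1.13 with Il6 not counted. Without those barcodes Ctla2a was at −2.27 in place of −4.63, Rgs1 at −2.63 in place of −3.80, and Cd63 at −1.21 in place of −1.85. With Il6 not counted these 3 genes were at −3.18, −3.09 and −1.56. Without the same barcodes Saa3 was at 6.06 in place of 5.34, Il1a at 3.12 in place of 4.08, and H2-Ab1 at −2.92 in place of −1.87. With Il6 not counted Saa3, Il1a and H2-Ab1 were at 5.25, 4.36 and −1.79. Rgs1, a regulator of G protein signalling, was at 75.1 and 5.05 CPM, in 42 and 4 members. Vegfa, the vascular growth factor, was at 66.3 and 10.1 CPM, in 71 and 13 members, and Ddit3, the stress factor CHOP, at 70.9 and 18.0 CPM, in 76 and 19. Cd63, a lysosomal tetraspanin, was at 97.3 and 26.7 CPM. The hemoglobin gene Hba-a1 was at 3452 and 887 CPM, with 53.5% of its control UMIs and 79.9% of its OTM UMIs in a single barcode of each library.

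**Figure D5:**
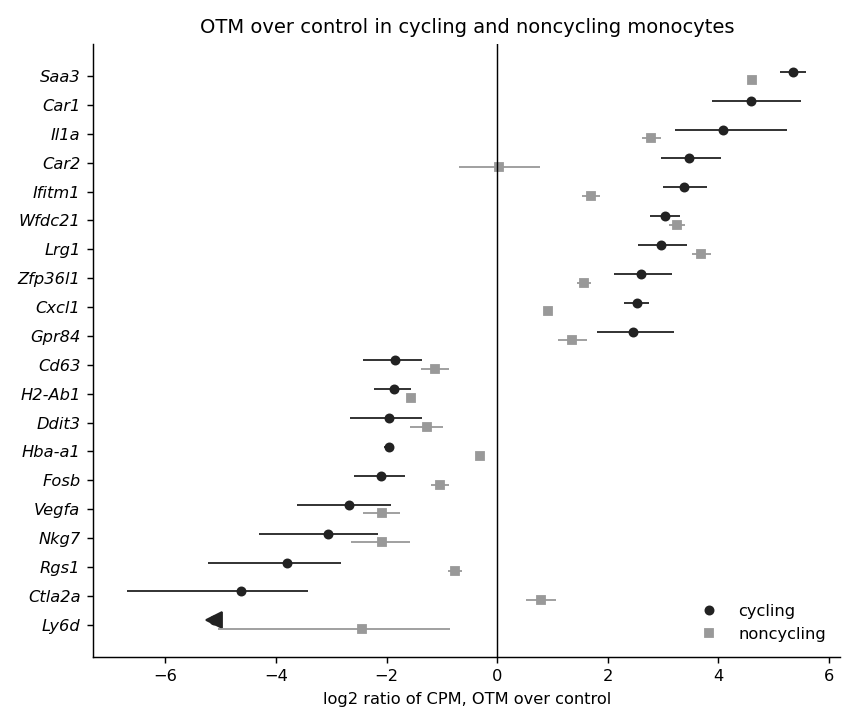
Points give the log2 ratio of CPM, OTM over control, in cycling and in noncycling monocytes for the 10 genes with the highest and the 10 with the lowest ratios in members, with exact conditional binomial intervals. An arrowhead marks the bound for Ly6d, no point is drawn where both libraries had 3 UMIs or fewer, and Saa3 is highest in members at 5.34 and stands at 4.61 in noncycling monocytes, while Ctla2a is at −4.63 in members and 0.79 in noncycling monocytes.

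For most of these genes the ratio in noncycling monocytes had the same direction, with Ctla2a opposite and Car2 at 0.04. Lrg1 was at 2.96 in members and 3.69 in noncycling monocytes. Cxcl1 was at 2.52 and 0.92, but its member ratio was 1.30 at a minimum share of 0.02% and 1.35 with the definition applied to thinned barcodes. Ifitm1 was at 3.37 and 1.69, but its member ratio was 1.18 in barcodes with at least 200 genes per 1000 UMIs, 1.40 without barcodes over 20000 UMIs and 1.72 without barcodes holding genes of other cell types. With Il6 not counted in that last filter the member ratio of Ifitm1 was 2.94. These pairs of ratios use separate barcodes of the same 2 libraries, and the difference between them has no replicate check. Glycolysis and hypoxia genes were slightly higher in OTM members, with 1 of 17 counted called, Vegfa, which was lower, and a median of 0.51, against 0.36 in noncycling monocytes. Oxidative phosphorylation genes had a median of −0.18 in members. Apoe was higher in OTM, at 204 and 652 CPM in members (1.67), with UMIs in 92 and 81 members.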

How the data were processed

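The authors deposited 1 table of UMI counts for control and 1 for OTM (genes by barcodes, whole numbers, not normalized), and the submitters' processing notes name Cell Ranger 3.0.0, Seurat 3.0.0 and the mm10 build. Members and noncycling monocytes were found by the definition given above. UMIs were summed per group and library, divided by the group's total to give CPM, and compared as ratios (0.5 UMIs added for log2), with exact Poisson, Clopper-Pearson and exact conditional binomial intervals at 95%. Python 3.11.15, numpy 2.4.6, scipy 1.17.1, pandas 2.3.3, R 4.3.3 and edgeR 4.0.16 (TMM factors only) were used. Intervals treat UMIs as independent. Barcodes were thinned once to 2500 UMIs, leaving out 19 control and 1 OTM member that were shallower. No doublet caller was run. Only the ratios and their intervals were tested on simulated data, drawn as independent counts. The definition, the thinning and UMIs gathered in a few barcodes were not part of that test.

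Named genes are the markers, genes from the lists chosen for abundance or as defining members, the 10 highest and 10 lowest in OTM over control members, and the 15 highest and 15 lowest over noncycling monocytes in both libraries. Members and lists were chosen with earlier results of these data known, so no list is independent support. Coordinates are from GENCODE release M21 and promoters from RefSeq, both GRCm38. Alternatives covered the definition, scaling, count minimum, added UMIs, depth and barcodes of other cell types. Results for a few items are not reported here.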

Additional observations from a re-analysis of the deposited data

Results flagged for a closer look

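C1qa, a complement gene of resident macrophages, and Ctla2a were the 2 genes of 4430 whose ratio of members over noncycling monocytes passed 2-fold in opposite directions in the libraries. C1qa was at −1.38 on the log2 scale in control and 2.44 in OTM. Its levels were 29.0 CPM in control members and 75.9 CPM in control noncycling monocytes, and 50.5 and 9.26 CPM in OTM. The control members' 56 UMIs were in 8 members, 66.1% of them in 1, and all 70 OTM UMIs were in a single member. Ctla2a was at 1.30 in control and −4.12 in OTM, from 80.2 and 32.6 CPM in control and 2.88 and 56.5 CPM in OTM. Its 155 control UMIs were in 9 members, 44.5% of them in 1, and OTM had 4 UMIs in 4 members. The difference between the libraries was not tested for either gene.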

How the results depend on the processing

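No paired analysis was possible because each group has 1 library. Under the alternatives 98 summary values stayed within their counting interval (counts within 1.5 times) and 32 moved, while for the genes named in OTM over control 239 values stayed, 55 moved and 6 turned. Genes higher in OTM members (85) numbered 1326 with a minimum of 1 UMI and 47 without barcodes holding genes of other cell types, and genes lower (49) numbered 2242, 135 with a minimum of 50 UMIs, and 27. Genes higher in members than in noncycling monocytes (526 in control, 557 in OTM) numbered 345 and 350 with TMM, 2842 and 3220 with 1 UMI, 876 and 926 with 50 UMIs, and in OTM 338 with the definition on thinned barcodes and 266 without barcodes of other types. Members with DNA replication UMIs (73.6% and 75.5%) were 89.1% and 87.8% at 1 UMI, 89.1% and 96.0% unthinned, 55.4% and 58.3% at a minimum share of 0.02%, 56.2% and 49.0% with the thinned definition, and in OTM 62.1% without barcodes of other types. OTM members (99) numbered 155 with the thinned definition and 29 without barcodes of other types. Their share of monocyte-type barcodes (15.7% and 11.6%) was 23.2% and 16.5% at 0.02%, 24.3% and 18.5% with the thinned definition, 13.5% and 7.06% without barcodes of other types, 12.7% in control at 0.08%, and 8.39% in OTM at 200 genes or more per 1000 UMIs. The large loss in OTM without other types came from Il6, which the basophil list holds: with Il6 not counted (chosen after seeing the data), 195 and 90 members and 15% and 11.1% remained. Under that filter 76 genes were higher and 36 lower in OTM than in control members. In OTM 485 genes were then higher in members than in noncycling monocytes, and 74.2% of members had DNA replication UMIs. The log2 ratio turned for Car1 (−3.17) and Car2 (−2.23) at 200 genes per 1000 UMIs, for Hba-a1 at 0.02% (0.33) and with the thinned definition (0.15), and for Ly6d without other types (1.78, and 0.45 with Il6 not counted). The cause of the other moves was not tested. Depth limits genes under 100 UMIs, and 1 library in a group leaves the spread between animals unmeasured.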
